A study of Homo sapiens with 6 samples.

Results

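The 49 genes described here repair DNA double-strand breaks and DNA interstrand crosslinks. They were taken by gene name from the table of 62754 genes, and every one of the 49 names was found once. By role they comprised 25 genes of homologous recombination, 14 genes of the Fanconi pathway of crosslink repair, and 10 genes of end joining and of the choice between the pathways at a break. Each gene was counted under a single pathway, and assigning genes with several roles otherwise could change the counts per pathway. RNA came from HPNE-hTERT, a non-malignant human pancreatic ductal line immortalized with telomerase, and all libraries derive from this line. Cells were kept for 4 days with DMSO as the vehicle or with FOLFIRINOX, a mixture of SN-38 (25 nM), Oxaliplatin (5 µM) and 5-Fluorouracil (10 µM), a treatment that the labels say was used to induce senescence. Each group had 3 libraries, named by the P14, P15 or P19 of their columns. Whether the 3 libraries of a group are separate cultures is not in the labels, and every p-value here reflects only how these libraries vary, which may be technical. The RNA of each repair pathway was compared between the 2 groups.

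Homologous recombination copies the sequence of an intact sister chromatid. The broken end is first cut back to a single strand, the BRCA1, PALB2 and BRCA2 proteins then prepare that strand to invade the sister duplex, and helicases and nucleases take the joined molecules apart. The Fanconi proteins form a core complex that attaches ubiquitin to the FANCD2 and FANCI pair, which directs nucleases to a crosslink. End joining, in contrast, seals the ends directly: the Ku heterodimer binds them, the kinase DNA-PKcs holds them, and ligase IV joins them in any phase of the cell cycle. Recombination needs a sister chromatid and acts in the S and G2 phases. SN-38, the active form of irinotecan, traps topoisomerase I on DNA, and oxaliplatin links bases within and between strands.

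Gene counts summed to between 83981154 and 97762802 reads per library. Values are normalized reads, which are reads divided by the size factor of the library, and folds and differences are on the log2(value + 1) scale. The 8 cell division markers on the list summed to 75189 to 109837 normalized reads in vehicle and 2306 to 2691 in FOLFIRINOX, and all 8 fell. Their part in the differences of the repair genes was not tested. The share of reads from mitochondrial ribosomal RNA was 0.552% to 0.864% in vehicle and 1.18% to 2.74% in FOLFIRINOX, and its part in the results was not tested. Of 10 ductal epithelial markers 6 passed the filter on low values. Their sum was 11979 to 14439.7 in vehicle and 8966 to 9959 in FOLFIRINOX. The defining ductal keratin KRT19 had at most 4.24 normalized reads in vehicle and 17.7 in FOLFIRINOX, and EPCAM had no read in 5 of the 6 libraries. CFTR was also at or near 0. Other epithelial markers on the list were expressed, with vehicle means of 9901 for KRT18, 1776 for KRT8, 1545 for SOX9 and 159 for KRT7. All 10 mesenchymal markers passed, with sums of 3671672 to 5378263 and 3015739 to 3465993, far above those of the ductal list. The ductal name of the line is thus not borne out by KRT19, EPCAM or CFTR in these libraries. None of 10 acinar and islet markers and 3 of 10 immune and endothelial markers passed, the latter with sums of 43.0 to 50.9 and 62.8 to 119.

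After FOLFIRINOX 15 of 25 recombination genes and 9 of 14 Fanconi genes had less RNA, and 0 of the 10 end-joining and pathway-choice members were called. The difference between the pathways was not tested. All 49 genes passed the filter of 10 normalized reads in at least 3 libraries, and 24 of them fell (limma, Benjamini-Hochberg adjusted p under 0.05 over 17951 genes), where 12.2% of all genes tested were called lower. None was called higher, where the share over all genes was 11.4%. At an unadjusted p under 0.05, 3 were higher in limma, and edgeR and DESeq2 on the recovered reads also called 0 higher. The share that fell was 60.0% of the recombination genes (median log2 difference −0.92), and 64.3% of the Fanconi genes (median −1.45). The end-joining and pathway-choice genes had 0 calls in either direction in limma, edgeR and DESeq2, with 1 lower and 1 higher at an unadjusted p under 0.05 in limma (median −0.24). The median of all genes tested was 0.02. A fall of at least 4-fold was called for 12 recombination and 6 Fanconi genes, against 2.11% of all genes.

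Libraries with the same P number deviated together, so each result was also fitted with the P number as a replicate block. In that fit 30 of the 49 genes were lower and 4 higher, where 21.8% and 22.3% of all genes were called. Among them 17 recombination, 10 Fanconi and 3 end-joining genes were lower, and 2, 1 and 1 were higher. The authors' deposited table called 25 of the 49 lower and 0 higher, where 9.89% of the genes with an adjusted p were lower. Every FOLFIRINOX library was below every vehicle library for 26 of the 49 genes (53.1%, against 19.6% of all genes), and above for 3 (6.12%, against 19.9%). In bulk RNA, fewer cells that make an RNA and less of that RNA per cell cannot be told apart.

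**Figure D1:**
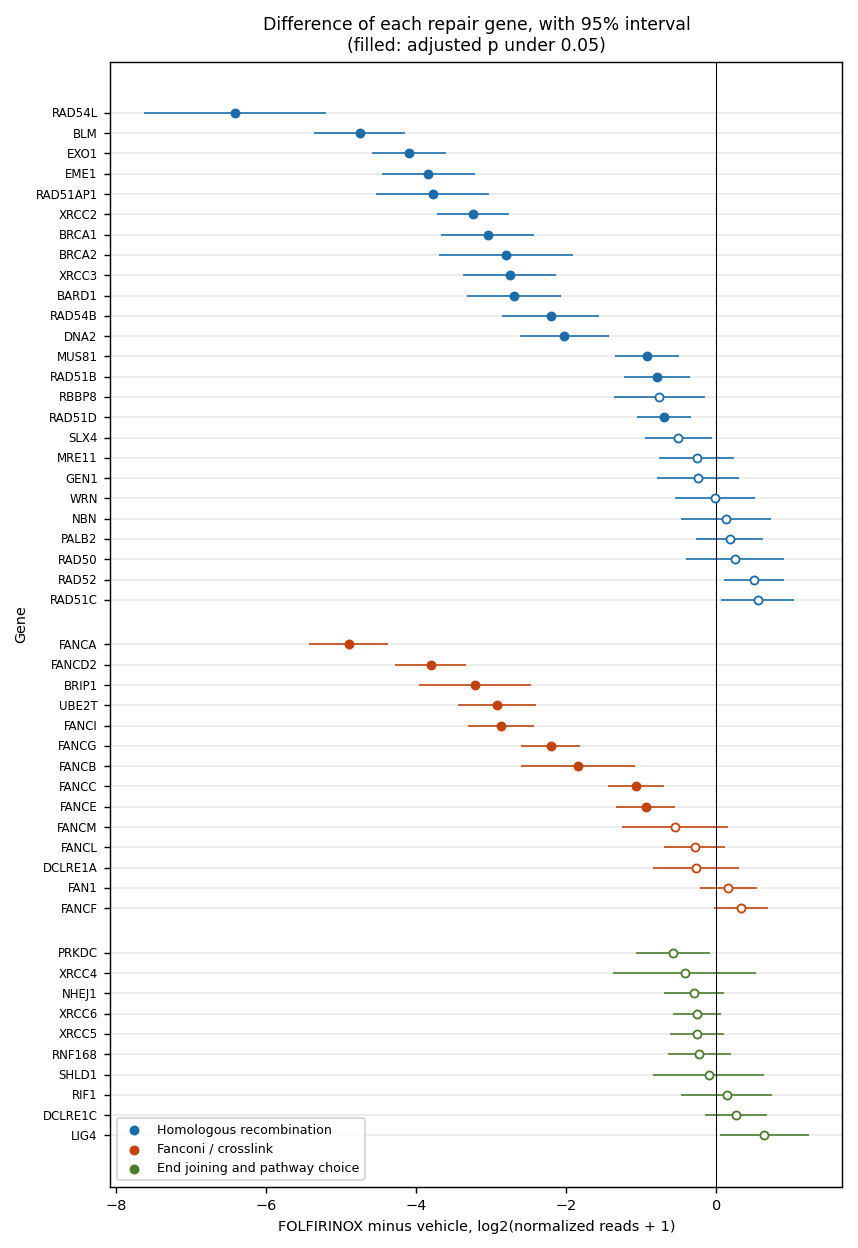
Difference between FOLFIRINOX and vehicle (horizontal axis, log2 of normalized reads + 1) for each of the 49 genes, with the 95% interval from limma over 3 libraries a group. Filled points passed at adjusted p under 0.05. Points run from −6.42 (RAD54L) to 0.64 (LIG4), and none of the 10 green end-joining points is filled.

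Promoters are shown for 5 members because 24 recombination and Fanconi genes fell. They are the 3 members with the largest falls (RAD54L, FANCA and BLM), RAD51C, whose difference was above 0 while its complex partners fell, and XRCC6, the most abundant member per length. All 5 were chosen after their values were seen. Each line gives 279 bases of RefSeq sequence on GRCh38.p14, 5′ to 3′ on the strand of the gene, from 250 bases before a transcript start to 29 bases from it. Capitals mark matches to the E2F-type letters defined below the sequences.
RAD54L, chr1:46247438-46247716, plus strand: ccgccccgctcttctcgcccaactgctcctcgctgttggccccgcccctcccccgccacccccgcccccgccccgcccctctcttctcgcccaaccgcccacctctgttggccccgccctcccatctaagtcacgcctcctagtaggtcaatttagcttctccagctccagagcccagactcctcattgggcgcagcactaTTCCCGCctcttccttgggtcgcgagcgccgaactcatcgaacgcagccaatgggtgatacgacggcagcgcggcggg
FANCA, chr16:89816619-89816897, minus strand: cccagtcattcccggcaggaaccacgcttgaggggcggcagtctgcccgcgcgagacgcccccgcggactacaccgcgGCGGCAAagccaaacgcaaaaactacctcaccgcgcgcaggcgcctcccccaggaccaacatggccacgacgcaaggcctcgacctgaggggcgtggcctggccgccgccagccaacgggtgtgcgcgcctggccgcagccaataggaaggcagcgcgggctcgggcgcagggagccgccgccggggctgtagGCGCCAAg
BLM, chr15:90717096-90717374, plus strand: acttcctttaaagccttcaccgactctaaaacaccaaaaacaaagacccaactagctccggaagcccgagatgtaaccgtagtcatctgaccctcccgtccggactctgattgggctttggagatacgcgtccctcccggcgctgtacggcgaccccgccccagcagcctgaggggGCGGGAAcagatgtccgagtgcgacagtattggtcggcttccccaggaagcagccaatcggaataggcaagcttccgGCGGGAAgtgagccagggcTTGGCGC
RAD51C, chr17:58692323-58692601, plus strand: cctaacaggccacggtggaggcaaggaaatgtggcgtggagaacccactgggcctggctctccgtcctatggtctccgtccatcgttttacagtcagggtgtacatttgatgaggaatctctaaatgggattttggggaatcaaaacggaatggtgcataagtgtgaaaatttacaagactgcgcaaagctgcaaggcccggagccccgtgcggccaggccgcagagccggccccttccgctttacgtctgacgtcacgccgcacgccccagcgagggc
XRCC6, chr22:41621045-41621323, plus strand: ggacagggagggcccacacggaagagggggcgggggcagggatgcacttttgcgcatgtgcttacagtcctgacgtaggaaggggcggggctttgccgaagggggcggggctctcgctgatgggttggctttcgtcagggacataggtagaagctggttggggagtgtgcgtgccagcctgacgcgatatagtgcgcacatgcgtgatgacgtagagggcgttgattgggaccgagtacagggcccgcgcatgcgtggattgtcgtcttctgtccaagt

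The E2F transcription factors switch on genes of S phase and bind short GC-rich motifs, searched here on both strands as the letters TTCCCGC, the letters TTGGCGC, the letters TTCGCGC and the letters TTGCCGC, with a promoter counted once however many matches it held. RefSeq windows of 300 bases (250 before and 50 after a start) were found for 41 of the 49 members, some with several starts. At least 1 window held a match for 16 of 21 members that fell (76.2%) and for 7 of 20 members that were not called (35.0%). The share was 15.3% of the 27305 genes with any window, and 13.0% of all 35116 windows. This background, also used for the motifs below, was not limited to genes that passed the filter on low values, as all members did. The part of this difference in the shares was not tested. By pathway, 12 of 21 recombination, 9 of 13 Fanconi and 2 of 7 end-joining genes held a match. BLM had 3 matches, at −74, 3 and 22 bases from the start counted as 0, and FANCA had 2, at −172 and 21. RAD54L had 1 at −49 from the first of its starts, RAD51C had none in either of its windows, and the match of XRCC6 lay at 42, beyond the printed stretch. Median GC content of the windows was 64.3% for members that fell, 65.7% for members not called and 58.7% for all windows, and its part in these shares was not tested.

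The cell cycle homology region, written CHR and searched on both strands as the letters TTTGAA and the letters TTCGAA, is the other promoter element known from cell cycle genes. It occurred for 3 of 21 members that fell (14.3%: UBE2T, FANCC and BRIP1) and 2 of 20 not called (10.0%: GEN1 and RIF1), against 19.5% of all genes with a window. The CCAAT box on either strand occurred for 9 of 21, 10 of 20 and 39.7% of these sets, and the GC box, searched on both strands as GGGCGG, for 18 of 21, 14 of 20 and 48.3%. These are matches of letters in one window and not measured binding.

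**Figure D2:**
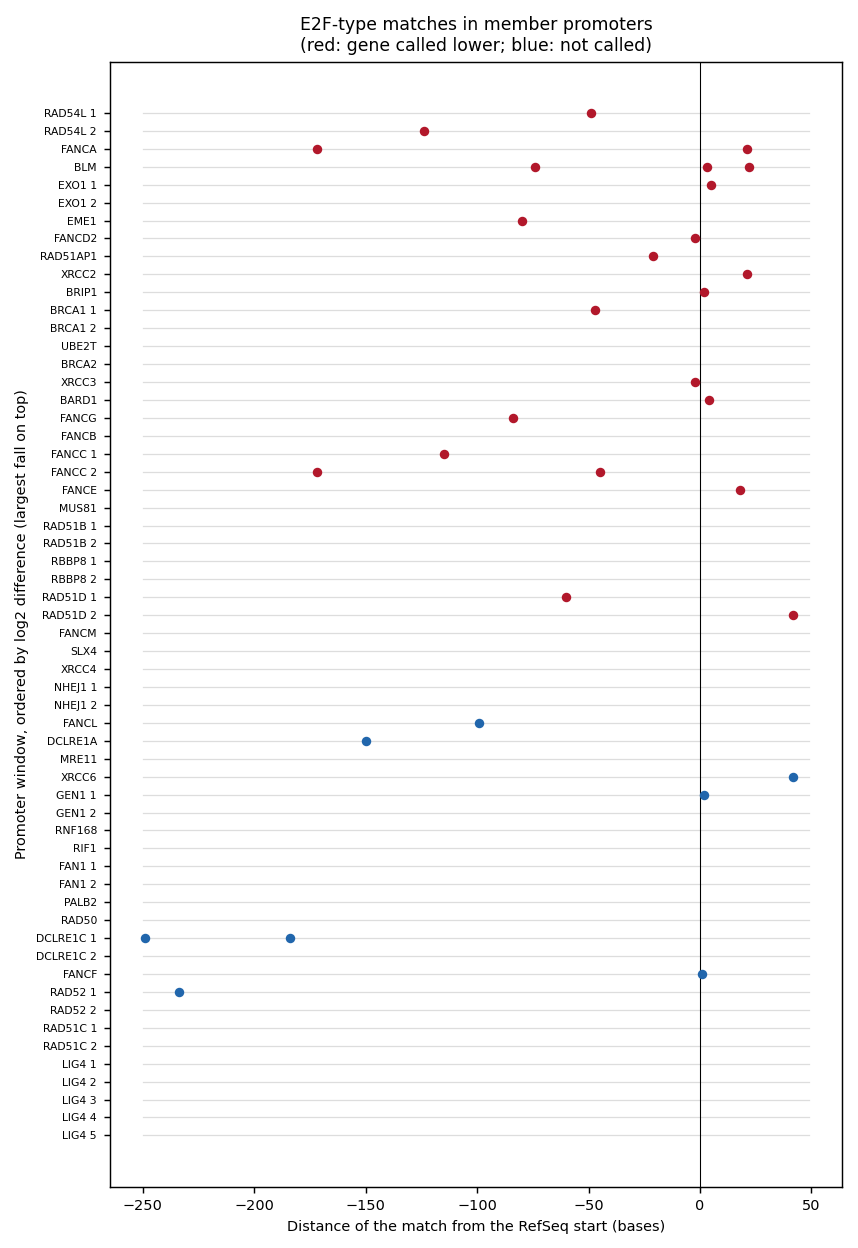
Positions of E2F-type matches (points) along the 58 RefSeq promoter windows of 41 members, ordered from the largest fall (top) to the largest positive difference (bottom). The horizontal axis is the distance in bases from the start. Red points, for genes that fell, lie on 19 of 27 windows, and blue points, for genes not called, on 7 of 31.

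Among the 13 mediators of strand invasion 10 fell, with the largest differences at RAD54L and RAD51AP1. RAD54L, a DNA motor that promotes invasion of the sister duplex (chromosome 1, 46247688 to 46278473 in GENCODE 29, GRCh38), had 729, 854 and 804 in vehicle and 2.06, 17.7 and 13.1 in FOLFIRINOX, named P14, P15 and P19 in that order here and below. All 3 FOLFIRINOX values were far below all vehicle values, and FOLFIRINOX P14 rested on 2 reads (log2 difference −6.42 ± 0.55 SE, limma adjusted p = 1.2e-05). Over all alternatives the log2 difference of RAD54L ran from −6.92 to −5.51, so the size of this fall is uncertain. Its relative RAD54B fell from 255 ± 88.4 to 53.1 ± 9.65 (mean ± SD, n = 3; log2 difference −2.21 ± 0.29 SE, limma adjusted p = 3.6e-04). RAD51AP1, which stimulates strand invasion, had 2347, 1081 and 2754 in vehicle and 174, 97.4 and 157 in FOLFIRINOX (log2 difference −3.78 ± 0.34 SE, limma adjusted p = 1.8e-05). In both groups its P15 library was the lowest. RAD52, which anneals single strands, had 640.3, 829.7 and 619.7 in vehicle and 919.7, 982 and 1040.3 in FOLFIRINOX. All FOLFIRINOX values lay above all vehicle values, with a difference of 0.50 ± 0.18 SE (adjusted p = 0.0679, 0.0064 with the replicate block and 0.0064 to 0.22 over all alternatives). LRRC41 covers 25.1% of the exonic bases of RAD54L on the opposite strand and FSBP 59.1% of those of RAD54B on the same strand, and the strand setting of the counting is not given, so their levels are uncertain.

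The BRCA1 to BRCA2 axis lost RNA at 3 of its 4 members. BRCA1, the ubiquitin ligase and scaffold that starts recombination (chromosome 17, 43044295 to 43170245), had 1940.3, 2137 and 4132 in vehicle and 253, 316 and 379 in FOLFIRINOX (log2 difference −3.04 ± 0.28 SE, limma adjusted p = 2.2e-05). BARD1, its obligate partner, had 1292, 1379 and 2519.7 in vehicle and 214, 220.3 and 351 in FOLFIRINOX (log2 difference −2.69 ± 0.28 SE, limma adjusted p = 6.3e-05). BRCA2, which acts on the resected strand to start strand invasion, had 883, 1010.1 and 2477 in vehicle and 160.5, 127 and 316 in FOLFIRINOX (log2 difference −2.80 ± 0.41 SE, limma adjusted p = 6.5e-04). In each of these 3 genes P19 was the highest library of both groups, and the groups did not overlap. PALB2, the bridge between BRCA1 and BRCA2, had 1292, 1649.9 and 2148 in vehicle and 1782, 1804 and 2071 in FOLFIRINOX. Its groups overlapped, and its difference was 0.18 ± 0.20 SE (95% interval −0.26 to 0.62, adjusted p = 0.556). Per kb of exon, BRCA1 over BARD1 was 0.992 to 1.08 in vehicle and 0.713 to 0.946 in FOLFIRINOX, with no test of this or of the other ratios given here. PALB2 was at 357 and 397 normalized reads per kb in the 2 groups, beside BRCA2 at 119 and 16.4.

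RAD51B, RAD51C, RAD51D, XRCC2 and XRCC3, related genes whose proteins act in 2 complexes of recombination, included 4 that fell and 1, RAD51C, with a difference above 0. XRCC2 had 806, 884 and 1200.1 in vehicle and 109, 103 and 87.8 in FOLFIRINOX (log2 difference −3.24 ± 0.22 SE, limma adjusted p = 1.9e-06), so FOLFIRINOX cells kept 10.4% of the vehicle mean. XRCC3 had 498, 602 and 622 in vehicle and 55.6, 86.5 and 122 in FOLFIRINOX (log2 difference −2.75 ± 0.28 SE, limma adjusted p = 4.9e-05). KLC1 lies opposite 76.7% of the exonic bases of XRCC3, so the level of XRCC3 is uncertain. RAD51D had 1578, 1745 and 1818 in vehicle and 970.1, 1135 and 1074 in FOLFIRINOX (log2 difference −0.69 ± 0.16 SE, limma adjusted p = 0.0106), 61.8% of the vehicle mean. RAD51B had 638, 479 and 487 in vehicle and 344, 303 and 275 in FOLFIRINOX (log2 difference −0.79 ± 0.20 SE, limma adjusted p = 0.0156). It was not called without FOLFIRINOX P19 (adjusted p = 0.0695), without vehicle P14 (0.0598) or without both P14 libraries (0.0597), within 2.4e-04 to 0.0695 over all alternatives. RAD51C, the paralog shared by both complexes, had 2221, 1609.6 and 2089 in vehicle and 3942, 2349 and 2559 in FOLFIRINOX. Every FOLFIRINOX value was above every vehicle value, and FOLFIRINOX P14 was the highest (log2 difference 0.55 ± 0.22 SE, limma adjusted p = 0.0943, 7.9e-04 with the replicate block and 7.9e-04 to 0.293 over all alternatives). XRCC2, XRCC3 and RAD51D are complex partners of RAD51C and fell.

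Of 6 end resection genes 2 fell. The nucleases of long-range resection fell: EXO1, a 5′ to 3′ exonuclease, had 1837, 2053 and 2988 in vehicle and 145, 109 and 140.1 in FOLFIRINOX (log2 difference −4.09 ± 0.22 SE, limma adjusted p = 3.6e-07). DNA2, a helicase and nuclease, had 892, 972 and 1851 in vehicle and 248, 317 and 303 in FOLFIRINOX (log2 difference −2.02 ± 0.27 SE, limma adjusted p = 3.6e-04). Both kept no overlap between groups, and EXO1 stood at 5.73% of its vehicle mean and DNA2 at 23.3%. None of the 3 genes of the MRN complex, which recognizes the break and makes the first cut, was called. MRE11, the nuclease, had 2082, 2149.6 and 3524 in vehicle and 1809.5, 2027 and 2518 in FOLFIRINOX (difference −0.26 ± 0.23 SE, 95% interval −0.76 to 0.24). NBN, the adaptor that recruits the ATM kinase, had 6998, 6544 and 12512 in vehicle and 7529, 7878 and 12674 in FOLFIRINOX (0.13 ± 0.27 SE, −0.47 to 0.73). Each FOLFIRINOX value of NBN was above the vehicle value of its own P number, and P19 was far higher than P14 and P15 in both groups, which overlapped. RAD50, the ATPase, had 122, 164 and 222 in vehicle and 150.2, 180.0 and 280.2 in FOLFIRINOX (0.25 ± 0.30 SE, −0.40 to 0.91). A readthrough gene listed at 0 reads in all libraries covers 79.7% of the exonic bases of RAD50 on the same strand, so the level of RAD50, 17.4 normalized reads per kb in vehicle beside 336 for MRE11, is uncertain. RBBP8, which encodes the MRN cofactor CtIP, had 3450.4, 2436 and 5333 in vehicle and 2286, 1597 and 2539 in FOLFIRINOX (difference −0.76 ± 0.28 SE, adjusted p = 0.0704, 1.3e-05 with the replicate block and 1.3e-05 to 0.206 over all alternatives). DESeq2 on the recovered reads called it lower (adjusted p = 0.0198), as did limma without vehicle P15 (0.0194).

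Of the helicases and nucleases that take recombination intermediates apart, 3 fell and 3 were not called. BLM, the RecQ helicase that dissolves double Holliday junctions (chromosome 15, 90717327 to 90816165), had 1119, 1357 and 2214 in vehicle and 43.2, 60.0 and 63.5 in FOLFIRINOX (log2 difference −4.75 ± 0.28 SE, limma adjusted p = 5.8e-07). WRN, a RecQ helicase of the same family that also has an exonuclease, had 2234, 2834 and 3933 in vehicle and 2277, 2766 and 3804 in FOLFIRINOX. The WRN groups overlapped fully, with a difference of −0.02 ± 0.24 SE (95% interval −0.55 to 0.52). Per kb of exon, BLM over WRN was 0.404 to 0.475 in vehicle and 0.0141 to 0.0183 in FOLFIRINOX. EME1, the regulatory partner of the nuclease MUS81, had 588, 855 and 937 in vehicle and 40.1, 50.2 and 76.6 in FOLFIRINOX (log2 difference −3.83 ± 0.28 SE, limma adjusted p = 4.0e-06). MUS81 itself fell from 1422 ± 115 to 759 ± 165 (log2 difference −0.92 ± 0.19 SE, limma adjusted p = 0.0059), and without both P14 libraries it was not called (adjusted p = 0.0603, range over alternatives 4.1e-06 to 0.0603). The 2 form 1 heterodimer, and MUS81 over EME1 per kb was 0.828 to 1.51 in vehicle and 5.47 to 11.3 in FOLFIRINOX. CFL1 and EFEMP2 lie opposite 14.1% of the exonic bases of MUS81, and LRRC59 opposite 16.4% of those of EME1. With the strand setting not given, these levels and their ratio are uncertain. GEN1, a Holliday junction resolvase, differed by −0.25 ± 0.25 SE (95% interval −0.79 to 0.30). SLX4, the scaffold of several nucleases, was below vehicle in every FOLFIRINOX library and differed by −0.50 ± 0.20 SE (adjusted p = 0.0948, 0.0036 with the replicate block and 0.0036 to 0.32 over all alternatives).

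Of 9 genes of the Fanconi core complex and its ubiquitin transfer, 6 fell. FANCA, a large scaffold subunit (chromosome 16, 89737549 to 89816657), had 1172, 1389.9 and 1259.9 in vehicle and 32.9, 38.4 and 57.0 in FOLFIRINOX (log2 difference −4.90 ± 0.24 SE, limma adjusted p = 1.5e-07), which is 3.36% of the vehicle mean. FANCG, which binds FANCA directly, fell to 21.6%, from 967 ± 60.0 to 209 ± 14.2 (log2 difference −2.21 ± 0.18 SE, limma adjusted p = 7.5e-06). FANCA over FANCG per kb was 0.455 to 0.512 in vehicle and 0.0606 to 0.106 in FOLFIRINOX. ZNF276 lies opposite 23.6% of the exonic bases of FANCA. FANCB, FANCC and FANCE, further core subunits, also fell (−1.84 ± 0.34 SE, −1.07 ± 0.17 SE and −0.94 ± 0.18 SE, limma adjusted p = 0.0032, 0.0013 and 0.0032). UBE2T, the E2 enzyme that carries the ubiquitin, had 3809.9, 2384 and 3031 in vehicle and 535, 330.5 and 354 in FOLFIRINOX (log2 difference −2.92 ± 0.24 SE, limma adjusted p = 7.7e-06), and P14 was its highest library in both groups. FANCL, the ligase subunit that works with UBE2T, was not called (−0.29 ± 0.18 SE, 95% interval −0.69 to 0.12), nor was the DNA translocase FANCM (−0.55 ± 0.32 SE, −1.25 to 0.15, adjusted p = 0.243, 0.0042 with the replicate block and 0.0042 to 0.638 over all alternatives). FANCF, an adaptor of the core, had 1164, 1155 and 1049 in vehicle and 1569.8, 1399 and 1274 in FOLFIRINOX. Its FOLFIRINOX values were all above its vehicle values (0.33 ± 0.16 SE, adjusted p = 0.177, 0.0475 with the replicate block and 0.0475 to 0.383 over all alternatives).

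Both members of the ubiquitinated pair fell. FANCD2 had 2281, 3123 and 3879.6 in vehicle and 199, 209 and 241 in FOLFIRINOX (log2 difference −3.80 ± 0.21 SE, limma adjusted p = 4.6e-07). FANCI had 4658, 5740.1 and 7917 in vehicle and 817, 797 and 840.5 in FOLFIRINOX (log2 difference −2.86 ± 0.20 SE, limma adjusted p = 2.6e-06). The 3 FOLFIRINOX values of FANCI lay close together, while its vehicle values differed by P number with P19 the highest. FANCI over FANCD2 per kb was 1.98 to 2.20 in vehicle and 3.76 to 4.44 in FOLFIRINOX. Of the factors that act after them, BRIP1, the helicase also called FANCJ that binds BRCA1, had 1901, 2114 and 4287 in vehicle and 213, 232 and 435 in FOLFIRINOX (log2 difference −3.21 ± 0.34 SE, limma adjusted p = 6.0e-05). The crosslink nucleases FAN1 and DCLRE1A were not called, while the nuclease DCLRE1B, read from the other lists below, was called lower. FAN1 had 2039.7, 2700.3 and 2818 in vehicle and 2905, 2784 and 2694 in FOLFIRINOX, a difference of 0.16 ± 0.17 SE (95% interval −0.22 to 0.54), with MTMR10 opposite 24.3% of its exonic bases. DCLRE1A, the SNM1A exonuclease, differed by −0.27 ± 0.26 SE (95% interval −0.84 to 0.30).

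**Figure D3:**
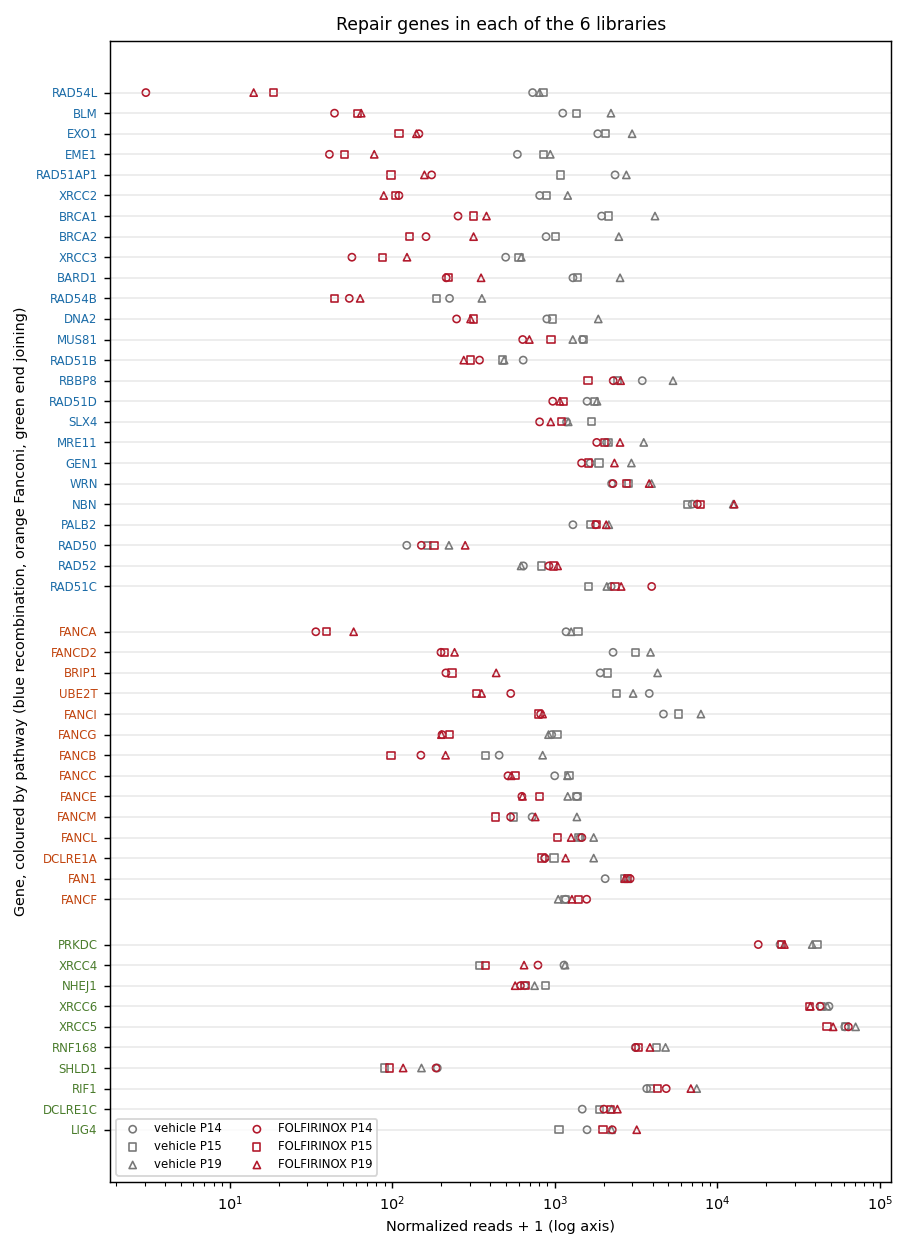
Normalized reads + 1 on a log axis in each of the 6 libraries for the 49 genes, grouped by pathway (gene names in blue, orange and green) and ordered by difference. Grey symbols are vehicle and red symbols FOLFIRINOX, with 1 symbol shape per P number. Red and grey separate for the upper genes of the recombination and Fanconi blocks and are mixed in the end-joining block, where only XRCC6 has all red symbols to the left.

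None of the 7 end-joining genes was called by limma without the replicate block, and their differences ran from −0.58 to 0.64. With the block XRCC6, PRKDC and XRCC4 were called lower and LIG4 higher. XRCC5, the Ku80 subunit (chromosome 2, 216107464 to 216206303), had 60732, 61303 and 70787 in vehicle and 63916, 47264 and 51470.2 in FOLFIRINOX. XRCC6, the Ku70 subunit, had 48557, 43749 and 47318 in vehicle and 42814, 36987 and 37278 in FOLFIRINOX. The XRCC5 groups overlapped, and those of XRCC6 did not. Differences were −0.25 ± 0.16 SE and −0.26 ± 0.14 SE (95% intervals −0.61 to 0.10 and −0.57 to 0.06, adjusted p = 0.289 and 0.229), so the FOLFIRINOX means were 84.4% and 83.9% of vehicle. XRCC6 was called lower only with the block (adjusted p = 0.0436, and 0.0436 to 0.619 over all alternatives). Reads may be shared with its 5 listed pseudogene copies, of which XRCC6P2 was the highest, at means of 163 in vehicle and 146 in FOLFIRINOX. XRCC5 over XRCC6 per kb was 0.753 to 0.900 in vehicle and 0.769 to 0.899 in FOLFIRINOX. PRKDC, the DNA-PK catalytic subunit, had 24296, 40969 and 38289 in vehicle and 17834, 24822 and 25813 in FOLFIRINOX. Each FOLFIRINOX library was below the vehicle library of its own P number (log2 difference −0.58 ± 0.22 SE, limma adjusted p = 0.0851, 3.9e-05 with the replicate block and 3.9e-05 to 0.257 over all alternatives). PRKDC was also called lower without vehicle P14 (adjusted p = 0.0213) and without both P14 libraries (0.023).

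At the ligation step LIG4, DNA ligase IV, had 1578, 1061 and 2230.0 in vehicle and 2257, 1979.8 and 3190.2 in FOLFIRINOX. It was higher in FOLFIRINOX within each P number, by 0.52, 0.90 and 0.52 on the log2 scale (log2 difference 0.64 ± 0.27 SE, limma adjusted p = 0.111, 1.6e-04 with the replicate block and 1.6e-04 to 0.356 over all alternatives). Without vehicle P19 it was called higher (adjusted p = 0.0204). XRCC4, the scaffold that holds ligase IV, had 1138, 345 and 1155 in vehicle and 787, 374 and 646 in FOLFIRINOX. P15 was much lower than P14 and P19 in both groups, and the difference was −0.42 ± 0.43 SE (adjusted p = 0.523, 0.0406 with the replicate block and 0.0397 to 0.89 over all alternatives). Without vehicle P15 XRCC4 was called lower (adjusted p = 0.0397). XRCC4 over LIG4 per kb was 0.533 to 1.18 in vehicle and 0.309 to 0.572 in FOLFIRINOX. NHEJ1, the ligation factor XLF, and DCLRE1C, the hairpin-opening nuclease Artemis, differed by −0.30 ± 0.18 SE and 0.26 ± 0.19 SE (95% intervals −0.70 to 0.10 and −0.15 to 0.68). Another gene covers 65.4% of the exonic bases of NHEJ1 on the same strand, so its level is uncertain.

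None of the 3 genes that steer breaks toward end joining was called. RNF168, which marks histone H2A with ubiquitin around the break, had 3127, 4219 and 4798 in vehicle and 3152, 3275 and 3845 in FOLFIRINOX (−0.22 ± 0.19 SE, 95% interval −0.64 to 0.19). RIF1, which restrains resection, had 3676, 3862 and 7463 in vehicle and 4843, 4279 and 6868 in FOLFIRINOX (0.14 ± 0.27 SE, −0.46 to 0.75). SHLD1, a subunit of the shieldin complex that also restrains it, had 188, 89.1 and 150.5 in vehicle and 185, 95.4 and 116 in FOLFIRINOX (−0.10 ± 0.34 SE, −0.84 to 0.64). Each of these 3 intervals includes a change of 1.5-fold in at least 1 direction, so a change of that size is not shown to be absent.

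Levels between genes were compared per kb of exonic length. The Ku genes stood far above the rest, with XRCC6 at 14155 ± 759 and XRCC5 at 11765 ± 1034 normalized reads per kb in vehicle, and 11869 ± 999 and 9924 ± 1585 in FOLFIRINOX. PRKDC at 2239 ± 581, UBE2T at 1861 ± 432 and NBN at 1411 ± 539.7 followed in vehicle, and neighbours in this order of 3 did not differ beyond their spread. In FOLFIRINOX, UBE2T was at 246 ± 67.7, and NBN and PRKDC at 1521 ± 467 and 1480.4 ± 282. The lowest members were RAD50 at 17.4 ± 5.16 and RAD54B at 48.1 ± 16.6 in vehicle, and RAD54L at 3.41 ± 2.50 and FANCA at 4.39 ± 1.30 in FOLFIRINOX. Other genes overlap the exons of each of these members, so these lowest levels are uncertain. The members that fell ranged from 48.1 to 1861 normalized reads per kb in vehicle, and the 25 members not called from 17.4 to 14155. The low ends are the uncertain levels of RAD54B and RAD50. Next lowest were RAD51B at 71.5 among members that fell and SHLD1 at 83.8 among those not called, so both sets spanned low and high levels.

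Of the summed level of the 49 genes, end joining and pathway choice supplied 65.0 to 70.3% in vehicle libraries and 75.5 to 80.0% in FOLFIRINOX libraries, most of it from XRCC5 and XRCC6 (54.3 to 60.7% and 62.4 to 70.2%). The summed level of the end-joining and pathway-choice genes was itself lower in FOLFIRINOX, at 23562 to 28166 normalized reads per kb against 29187 to 32763 in vehicle. The Fanconi sums were 2379.7 to 2713 against 5646 to 7077, and the recombination sums 4227 to 5626 against 6683 to 10565. The Fanconi share was 13.6 to 14.3% in vehicle and 7.61 to 7.89% in FOLFIRINOX, and the recombination share 16.1 to 21.0% and 12.3 to 16.9%. The Fanconi ranges did not overlap and the recombination ranges did. NBN, which was not called, had the highest level per kb of the recombination genes in both groups. Across the 49 genes the vehicle level per kb and the log2 difference had Spearman's rho of 0.13, and exonic length and the difference −0.01, all from the same 6 libraries.

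**Figure D4:**
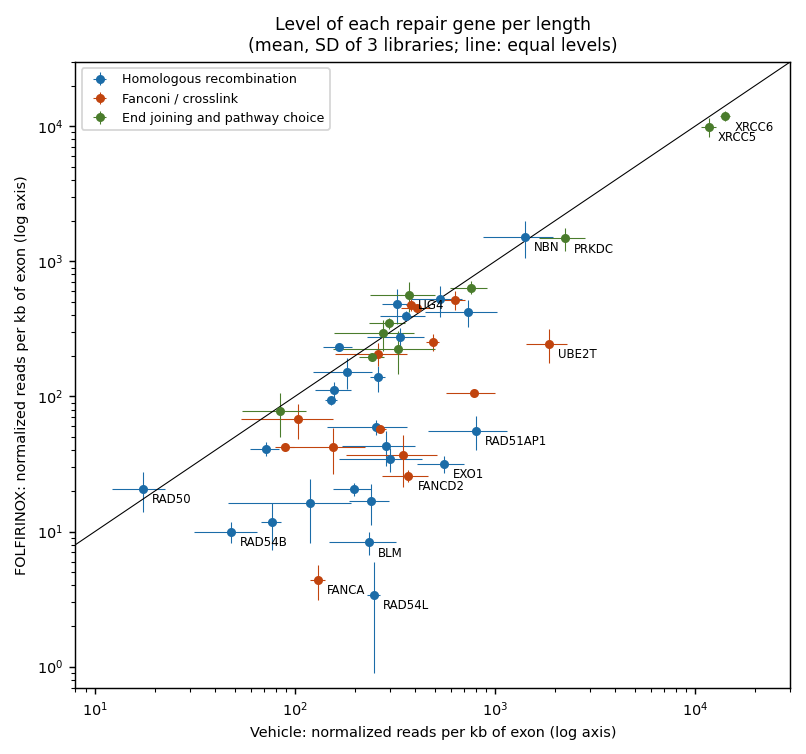
Level of each of the 49 genes in vehicle (horizontal) and FOLFIRINOX (vertical) as normalized reads per kb of exon on log axes, mean and SD of 3 libraries. Genes on the line have equal levels. XRCC5 and XRCC6 lie near the line at the upper right, UBE2T falls from 1861 to 246, and RAD54L and FANCA lie lowest, at 3.41 and 4.39 in FOLFIRINOX.

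Libraries also differed by P number. P19 was the highest vehicle library for 33 of the 49 genes (67.3%, against 35.8% of all genes tested) and the highest FOLFIRINOX library for 27 (55.1%, against 29.8%). For 24 genes it was the highest of both groups, a count for which no share over all genes was computed. BRCA1, BRCA2, BRIP1, NBN, RIF1 and RAD50 were among these 24 genes. The median SD of log2 values over 3 libraries was 0.37 in vehicle and 0.29 in FOLFIRINOX for the members, beside 0.28 and 0.25 for all genes tested. Within P numbers, FOLFIRINOX was lower in all 3 pairs for 32 genes (65.3%, against 31.5% of all genes tested), higher in all 3 for 7 (14.3%, against 33.7%), and mixed for 10.

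Other genes of the same pathways were read from lists of 69 genes, of which 67 were tested. Of these 31 fell (46.3%) and 4 rose (median −0.49). Over all genes tested, 12.2% were called lower and 11.4% higher. Of 31 genes tested on the list of other recombination genes 19 fell (61.3%) and 2 rose. That list holds POLQ, the polymerase of theta-mediated end joining, and without it 18 of 30 fell. POLQ had 788, 1060.0 and 1701 in vehicle and 16.5, 11.8 and 14.9 in FOLFIRINOX (log2 difference −6.20 ± 0.30 SE, limma adjusted p = 1.4e-07). The RecQ helicase RECQL4 fell from 663 ± 72.8 to 71.7 ± 26.8 (log2 difference −3.25 ± 0.28 SE, limma adjusted p = 1.3e-05). EME2, the alternative partner of MUS81, had 187, 203 and 223 in vehicle and 328, 424 and 308 in FOLFIRINOX and rose (log2 difference 0.78 ± 0.21 SE, limma adjusted p = 0.0209), opposite to EME1, and the helicase HELQ rose from 1059 ± 146 to 1661 ± 191 (log2 difference 0.65 ± 0.18 SE, limma adjusted p = 0.022).

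Of 14 other Fanconi and crosslink genes 6 fell (42.9%, against 12.2% of all genes tested) and 1 rose, where 11.4% of all genes were called higher. The nuclease DCLRE1B, the core-associated FAAP24 and the FANCM partner CENPX fell by 1.36, 1.05 and 0.95 on the log2 scale (limma adjusted p = 5.7e-04, 0.0048 and 0.0125). REV3L, the catalytic subunit of polymerase zeta, rose from 2501 ± 806 to 4953 ± 1792 (log2 difference 0.97 ± 0.27 SE, limma adjusted p = 0.0249). Of the 22 other end-joining and break-site genes 6 fell (27.3%, against the same 12.2%) and 1 rose. H2AX, the histone variant phosphorylated at breaks, fell from 2343 ± 305 to 439.6 ± 55.8 (log2 difference −2.41 ± 0.18 SE, limma adjusted p = 4.6e-06), and PARP1, a sensor of strand breaks, from 16086 ± 2159 to 7303 ± 469.7 (log2 difference −1.13 ± 0.16 SE, limma adjusted p = 5.0e-04). PAXX, a Ku-binding factor, fell by 0.86, and APLF, a factor that binds Ku, rose by 0.85 (limma adjusted p = 0.018 and 0.0083). With the replicate block 38 of the 67 were lower (56.7%) and 9 higher, where 21.8% and 22.3% of all genes were called.

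Of these 12 named genes from the other lists, 6 were called under every alternative, and none of the 4 that rose was. EME2 was not called without FOLFIRINOX P15 (adjusted p = 0.0872), vehicle P14 (0.0647) or vehicle P15 (0.0579), within 0.0011 to 0.0916 over all alternatives. HELQ lost its call without vehicle P15 (0.0822), vehicle P14 (0.0684), FOLFIRINOX P19 (0.0849) or FOLFIRINOX P14 (0.0711), within 2.4e-04 to 0.145. REV3L was not called without FOLFIRINOX P19 (0.0847), vehicle P14 (0.103) or vehicle P15 (0.0705), within 5.5e-08 to 0.103. PAXX was not called without FOLFIRINOX P14 (0.0529), FOLFIRINOX P19 (0.0798) or vehicle P14 (0.063), within 3.4e-04 to 0.13. APLF and CENPX were not called without both P14 libraries (0.0733 and 0.0544), within 3.4e-05 to 0.0733 and 1.1e-05 to 0.0544.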

How the data were processed

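Polyadenylated RNA of 6 libraries was sequenced. Per the labels' protocols, library preparation combined mRNA enrichment from NEB with KAPA RNA HyperPrep. Per the submitters' processing notes, the genome build was GRCh38 and the tools the authors named were STAR 2.7.11b, FastQC 0.12.1, DESeq2 and featureCounts 2.0.6. For the strand setting, annotation release and DESeq2 version, the entry is: not given in the sources used here.

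The deposited table holds a library-size-normalized signal per library, and, per the file headers, the authors' log2 fold changes, a score (the Wald statistic), p-values and adjusted p-values. All normalized values (100%) were whole multiples, within 0.001, of the value of 1 read, which gave the reads. Even numbers made up 72.3% to 74.8% of recovered counts below 50. With this excess of even numbers, recovered reads may not be independent of one another, also in the edgeR and DESeq2 fits. Its cause was not tested. Replicates differed by more than sampling noise (chi-square per degree of freedom 76.0 to 231). Columns were assigned to groups by name, since P numbers are in no label.

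Differences were tested with limma 3.58.1 (trend option) on log2(value + 1). A gene entered with 10 or more normalized reads in 3 or more libraries, and p-values were Benjamini-Hochberg adjusted over all 17951 such genes, with a threshold of 0.05. An exact permutation test of 3 against 3 libraries cannot give a p under 0.1 and was not used. The members and lists were chosen with earlier results of these data known. Deviations from group means correlated at 0.257, 0.282 and 0.288 between libraries of the same P number, above the 0.1 set for pairing, so the block used P numbers, from the column names, in place of the labels' numbers. Alternatives were other pseudocounts, filters and scalings, edgeR 4.0.16 and DESeq2 1.42.0 on the reads, left-out libraries and the block. Over all genes edgeR called 1820 higher and 2389 lower, and DESeq2 2227 and 2314, beside 2047 and 2191 in limma. On simulated data of 17558 genes this comparison's limma step recovered 12 of 67 genes set to 1.5-fold, 37 of 67 genes set to 2-fold, and 57 of 66 genes set to 4-fold. It made 5 false calls. The simulated libraries varied independently, without the shared deviations by P number of the real ones. Recovery in the real libraries may therefore differ, and the fit with the block was not simulated. Every member was accounted for. Values in every library were given for the 2 largest falls per role group and for subunits compared within a complex, and for further members chosen after their values were seen. From other lists up to 3 called genes per direction with a mean of 50 or more were named. Some genes that these rules and lists hold are not reported here. Gene coordinates and exonic lengths are from GENCODE 29 (GRCh38), and promoter sequences from RefSeq on GRCh38.p14. Exonic lengths join all annotated transcripts, so levels per kb are approximate.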

Additional observations from a re-analysis of the deposited data

How the results depend on the processing

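Over 18 alternatives, 22 of the 24 members that fell were called lower in every one, the exceptions being RAD51B and MUS81 as given above. Members called lower numbered 23 to 30, recombination members 13 to 17 and Fanconi members 9 to 10, and of 882 single-gene comparisons 859 kept their call, 19 gained one and 4 lost one, with no reversal of a called direction. With the P number as a replicate block, 3995 genes of the whole table were higher and 3918 lower, and 4 members were higher and 3 end-joining members lower; beyond the 10 members whose blocked p is given above, the block changed no other member's call. Without both P14 libraries, 1021 genes were higher and 1326 lower, and 1 end-joining member was lower. Leaving out each library in turn gave 1201 to 2214 genes higher and 1506 to 2156 lower, 0 to 1 members higher (1 without vehicle P19) and 0 to 1 end-joining members lower (1 without vehicle P14 or vehicle P15). Without FOLFIRINOX P19, 1201 genes were higher. Common-total scaling called 2 members higher (RAD51C and RAD52) and quantile normalization 1 (RAD52). Common-total scaling moved the median of all genes by 0.11 and the share of calls that were higher from 48.3% to 61.3%. The causes were not tested, except that left-out libraries leave fewer samples. The median standard error of a member's log2 difference was 0.24, or 0.14 with the block, so differences of members not called are not shown to be absent.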
